A study of Mus musculus with 12 samples.

Results

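The data describe 9 genes of the renin-angiotensin, endothelin and adrenergic systems in the mouse heart, Agt, Ace, Agtr1a, Edn1, Edn3, Ednra, Ednrb, Adrb1 and Adra1b. They were taken by gene name from a table of 53465 genes, and all 9 were found and passed the filter on low counts. RNA sequencing was performed on left ventricular tissue of 12 male mice in 4 groups of 3. The A17fl/fl controls carry loxP-flanked Adam17 alleles (labelled ADAM17flox/flox) without Cre recombinase. A17α-MHCKO mice (labelled ADAM17alpha-MHCKO) carry the same alleles and a Cre transgene under the α-MHC promoter, which removes exon 2 of Adam17 in cardiomyocytes and leaves the gene in the other cells of the heart. Mice of both genotypes were 8 weeks old at the first injection and received either NS (normal saline) or DOX (doxorubicin, a cancer drug of the anthracycline class that is toxic to the myocardium). Doxorubicin was given in 4 intraperitoneal injections of 5 mg/kg, to a total of 20 mg/kg, and tissue was taken 4 weeks after the last of them.

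Angiotensinogen is cut by renin, and angiotensin-converting enzyme then forms angiotensin II, which acts on the AT1 receptor to constrict vessels and promote hypertrophy. Endothelins are peptides made largely by endothelium that constrict vessels through the ETA receptor, while the ETB receptor on endothelium releases nitric oxide and clears the peptide. Noradrenaline and adrenaline act in cardiomyocytes on β1-adrenergic receptors, which couple to Gs and cAMP and raise rate and force, and on α1-adrenergic receptors, which couple to Gq. In failing hearts these systems are commonly activated, and β1-adrenergic receptors are known to be lost from the myocardium.

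Library totals were between 15950717 and 21725076 counts, with a median of 16413855. Of the markers read in the same libraries, the 6 of ventricular cardiomyocytes summed to between 13880 and 37433 CPM and the 6 of atrium summed to between 343 and 8643 CPM. The library of A17fl/fl + NS replicate 1 stood apart. Its neutrophil markers summed to 2211 CPM, against at most 65.0 CPM in the other 11 libraries, and its cardiomyocyte sum was the lowest of the 12. Its fibroblast, macrophage and red cell markers were also the highest of the 12, with sums of 4752, 781 and 3621 CPM. Fold changes whose direction turned without it are given both ways. The targeted gene Adam17 was lower in A17α-MHCKO mice, with a log2 fold change of -0.64 after saline, -0.41 if that library is left out and -0.63 after doxorubicin, and the 6 knockout mice lay below the 6 A17fl/fl mice. Tissue was sequenced in bulk, so that fewer cells of a type and less RNA per cell cannot be told apart.

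Per length, the levels of the 9 genes spanned a wide range. FPKM is the fragment count divided by gene length and library total, and it allows genes to be compared. Ace, which encodes the converting enzyme, was the highest with a median of 17.1 FPKM over the 12 libraries. Adrb1, the β1-adrenergic receptor, followed with 10.8, Ednra, the ETA receptor, with 8.57, and Agtr1a, the AT1 receptor, with 6.28 FPKM. The medians of Adra1b (the α1B-adrenergic receptor), Agt (angiotensinogen), Edn1 (endothelin-1) and Ednrb (the ETB receptor) were 5.22, 3.14, 2.35 and 2.06 FPKM. Edn3, which encodes endothelin-3, was the lowest with 0.449 FPKM and rested on 14 to 93 counts per library. Each neighbouring pair in this order had overlapping ranges except Ednrb and Edn3, where Ednrb was the higher in 12 of 12 libraries. Ednra was above Ednrb and Adrb1 was above Adra1b in every library, by FPKM. In the files the genes are Agt (ENSMUSG00000031980, chromosome 8), Ace (ENSMUSG00000020681, chromosome 11), Agtr1a (ENSMUSG00000049115, chromosome 13), Edn1 (ENSMUSG00000021367, chromosome 13), Edn3 (ENSMUSG00000027524, chromosome 2), Ednra (ENSMUSG00000031616, chromosome 8), Ednrb (ENSMUSG00000022122, chromosome 14), Adrb1 (ENSMUSG00000035283, chromosome 19) and Adra1b (ENSMUSG00000050541, chromosome 11).

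**Figure D1:**
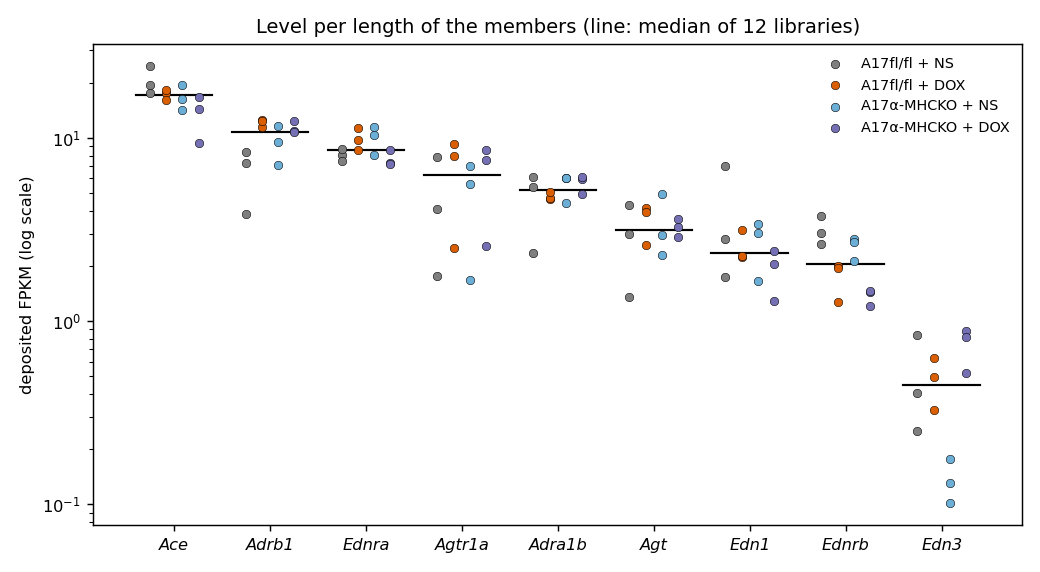
Deposited FPKM of the 9 genes in each of the 12 libraries on a log axis, coloured by group, with the median of each gene as a line. Ace is highest (median 17.1 FPKM) and Edn3 lowest (median 0.449 FPKM), and adjacent genes overlap except Ednrb and Edn3.

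The spread between mice of a group differed from gene to gene. The coefficient of variation within groups was 14.4% for Ednra and 14.8% for Ednrb, the smallest of the 9, and 61.0% for Agtr1a, the largest. CPM, counts scaled to library size after TMM normalization, are used from here on for the comparison of groups.

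Across the comparisons between groups, 0 of the 9 genes reached an adjusted p under 0.05 in edgeR's quasi-likelihood test. The share of all 16101 tested genes that did was 0% for doxorubicin in A17fl/fl mice, 0% for doxorubicin in A17α-MHCKO mice, 0.0186% for genotype after saline, 0.00621% for genotype after doxorubicin and 0% for the interaction. Over both genotypes it was 0% for doxorubicin, and over both treatments it was 0.0248% for genotype. At an unadjusted p under 0.05 the members numbered 2, 2, 1, 0, 2, 3 and 2 in these comparisons. The shares of all tested genes were 10.7%, 6.42%, 10.1%, 2.7%, 5.99%, 10.7% and 6.65%. The shares at an adjusted p under 0.05 depended on A17fl/fl + NS replicate 2. Without it they were 2.38% for doxorubicin in A17fl/fl mice, 4.09% for genotype after saline and 0.493% for the interaction. Doxorubicin over both genotypes came to 0.444% and genotype over both treatments to 0.28%. DESeq2 called Ednrb after doxorubicin in each genotype and over both, and Edn3 after doxorubicin in A17α-MHCKO mice and between the genotypes after saline. Of all tested genes it called 0.938% for doxorubicin in A17fl/fl mice and 0.255% in A17α-MHCKO mice. The shares were 1.09% for doxorubicin over both genotypes and 1.08% for genotype after saline. The study itself asked for a log2 change beyond 1 in either direction, p under 0.05 without adjustment and more than 1 FPKM on average in one group, and 0 of the 9 genes met these limits. Of all tested genes 2.82% met them for doxorubicin in A17fl/fl mice, 0.658% in A17α-MHCKO mice, 2.99% for genotype after saline and 0.205% for genotype after doxorubicin, and the shares were 0.814% for doxorubicin over both genotypes and 0.87% for genotype over both treatments.

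**Figure D2:**
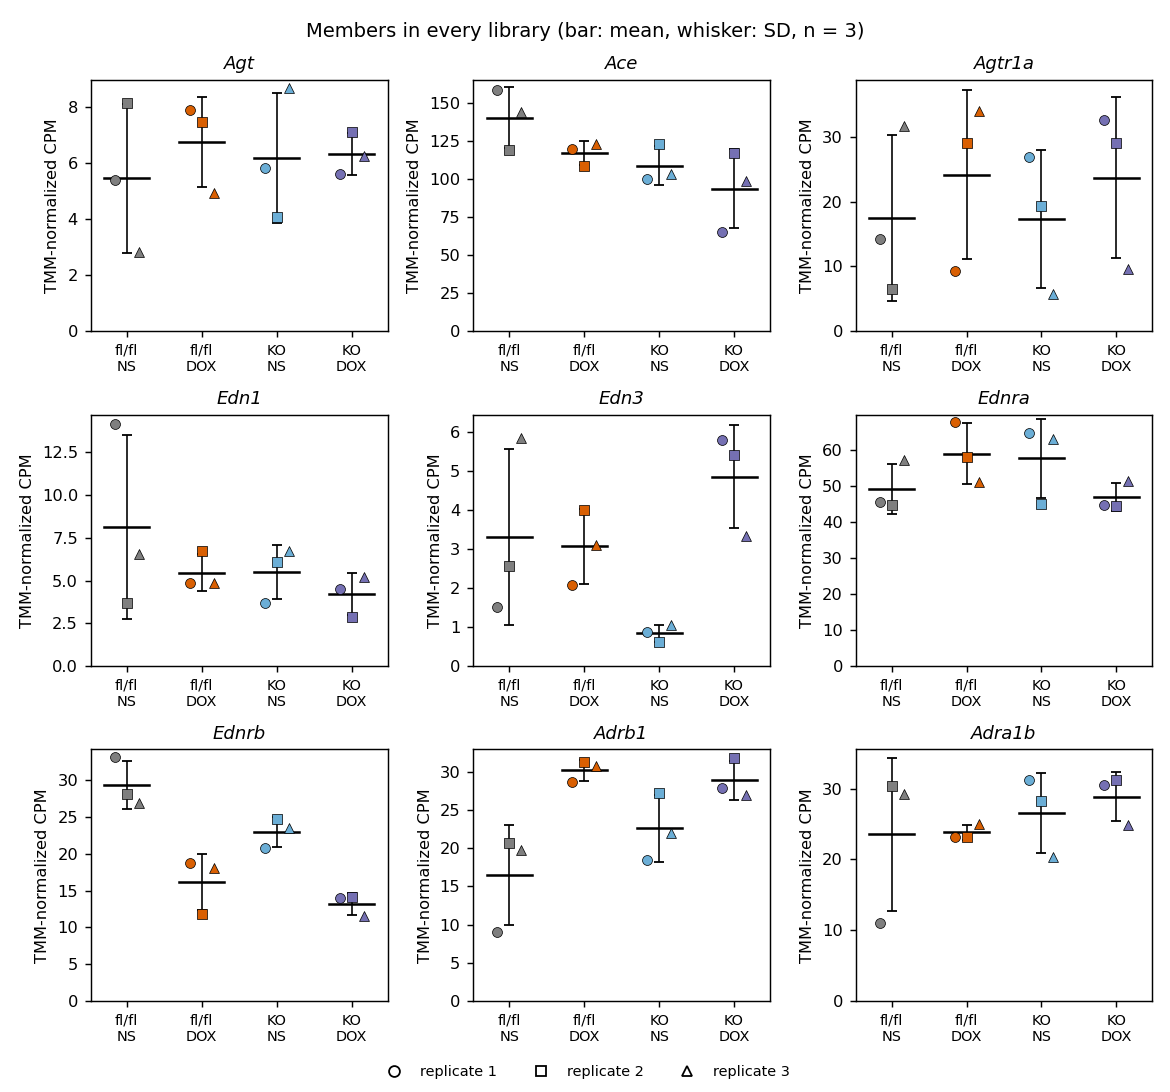
TMM-normalized CPM of each gene by group (fl/fl, A17fl/fl; KO, A17α-MHCKO; NS, saline; DOX, doxorubicin), with points for the mice, bars for means and whiskers for SD (n = 3). Ednrb is lower in the 6 doxorubicin-treated mice than in the 6 saline-treated mice, and Edn3 is lowest in the 3 A17α-MHCKO + NS mice (0.605 to 1.05 CPM).

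Doxorubicin in A17fl/fl mice was compared first, to ask how these systems differ in the heart with intact Adam17. Ednrb was lower and Adrb1 higher after doxorubicin, each with no overlap between the groups, and the other 7 genes overlapped. This makes 2 of 9 genes without overlap, against 13.3% of all tested genes, and 2 of 9 with an unadjusted p under 0.05, against 10.7%. Without A17fl/fl + NS replicate 1 Adra1b did not overlap either, which made 3 of 9 genes against 28.0% of all tested genes. The median log2 fold change of the 9 genes was 0.02, and that of all tested genes was -0.04.

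Doxorubicin in A17α-MHCKO mice was compared to ask the same where cardiomyocytes lack Adam17. Ednrb was again lower, and Edn3 was higher, each without overlap. Here 2 of 9 genes did not overlap, against 16.9% of all tested genes, and 2 of 9 had an unadjusted p under 0.05, against 6.42%. In a fit without A17fl/fl + NS replicate 1 the latter was 3 of 9, with Adrb1, against 11.5%. Between the genotypes after saline, Edn3 and Ednrb were lower in A17α-MHCKO mice without overlap, 2 of 9 genes against 10.9%, and Edn3 alone had an unadjusted p under 0.05, 1 of 9 against 10.1%. Without that library the same 2 genes did not overlap, against 25.1% of all tested genes. Between the genotypes after doxorubicin 0 of 9 genes were without overlap, against 14.1%, and 0 of 9 had an unadjusted p under 0.05, against 2.7%. The comparisons after saline and within one genotype share mice, so that these counts are not independent of each other.

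**Figure D3:**
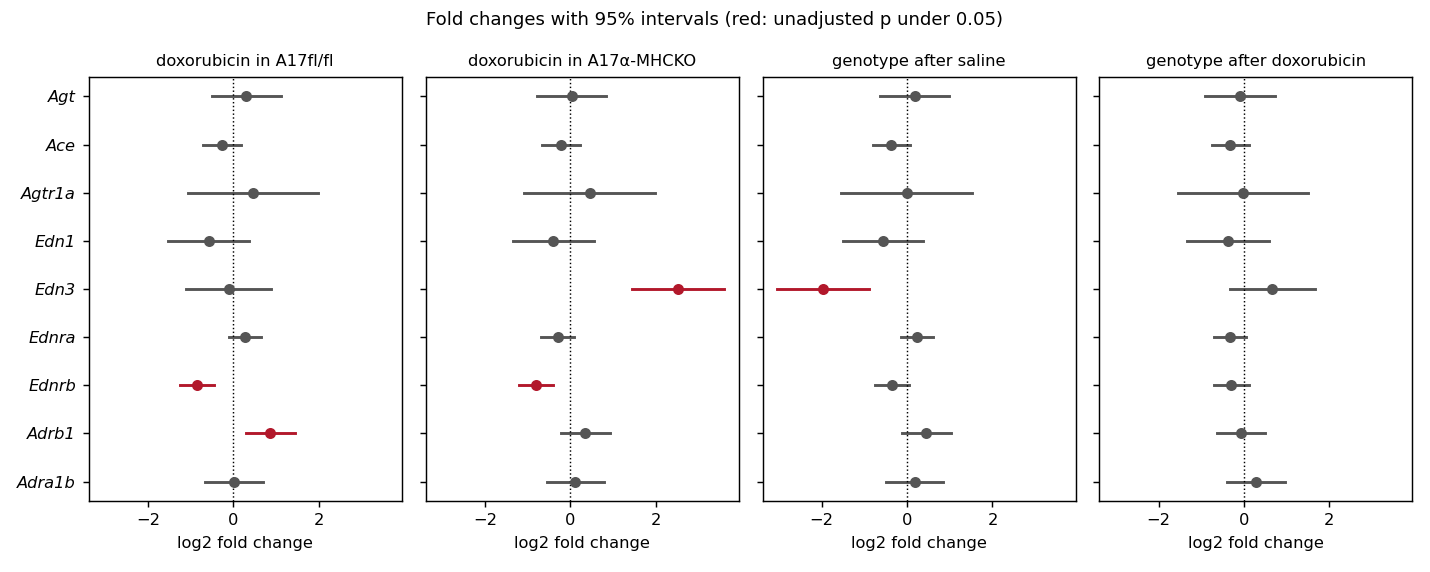
Log2 fold changes of the 9 genes with 95% intervals from edgeR's quasi-likelihood fit in the 4 comparisons between groups, in red where the unadjusted p is under 0.05. The red intervals are Ednrb and Adrb1 after doxorubicin in A17fl/fl mice, Edn3 and Ednrb after doxorubicin in A17α-MHCKO mice, and Edn3 between the genotypes after saline.

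The promoters of Ednrb, Adrb1 and Edn3 are shown because these 3 genes had the fold changes with the smallest p-values. Each sequence is the 250 bases before the transcription start on the coding strand (RefSeq, GRCm38.p6), at chr14:103843702-103843951 on the minus strand, chr19:56721867-56722116 on the plus strand and chr2:174760369-174760618 on the plus strand. Capitals mark matches on either strand to the TATA box TATAAA, the CCAAT box CCAAT, the GC box GGGCGG, the cAMP response element half-site TGACG or the GATA site AGATAA, and no marked matches overlap each other.
Ednrb: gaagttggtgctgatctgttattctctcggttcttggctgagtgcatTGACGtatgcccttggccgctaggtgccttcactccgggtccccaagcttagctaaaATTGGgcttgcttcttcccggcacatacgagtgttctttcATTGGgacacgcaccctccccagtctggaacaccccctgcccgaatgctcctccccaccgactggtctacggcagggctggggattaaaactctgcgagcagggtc
Adrb1: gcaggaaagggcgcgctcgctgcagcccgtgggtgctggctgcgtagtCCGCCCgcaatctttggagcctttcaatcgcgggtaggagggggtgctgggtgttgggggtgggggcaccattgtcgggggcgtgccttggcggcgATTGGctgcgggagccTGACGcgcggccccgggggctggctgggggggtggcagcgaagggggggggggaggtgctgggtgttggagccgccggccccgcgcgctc
Edn3: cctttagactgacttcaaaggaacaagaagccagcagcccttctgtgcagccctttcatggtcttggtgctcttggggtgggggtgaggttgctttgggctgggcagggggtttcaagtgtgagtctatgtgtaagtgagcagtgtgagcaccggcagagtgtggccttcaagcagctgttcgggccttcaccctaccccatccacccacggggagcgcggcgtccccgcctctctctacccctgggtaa
The Ednrb window held 2 CCAAT boxes, both on the reverse strand, at -146 to -142 and -106 to -102 from the start, and 1 TGACG at -203 to -199. The Adrb1 window held 1 reversed CCAAT box at -106 to -102, 1 reversed GC box at -202 to -197 and 1 TGACG at -90 to -86, while 0 matches were found in the Edn3 window. The GC content of the Adrb1 window was 74.0%, against 56.8% for Ednrb, 59.2% for Edn3 and a median of 52.4% over all 32851 windows of this length. Of those windows, 33.8% held a CCAAT box, 32.7% a GC box, 17.8% a TGACG, 12.4% a TATA box and 9.99% a GATA site. In the table, 8 of the 9 genes had a promoter, with 10 starts in all. A TATA box was found in Agt at -30 to -25 and, reversed, in 1 of the 2 Ace windows at -31 to -26, which also held 4 GC boxes, 2 of them overlapping each other. The matches are letters in these windows and were not tested as binding sites.

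Ednrb was lower after doxorubicin in both genotypes, to a similar degree. It measured 33.1, 28.1 and 26.9 CPM with saline and 18.7, 11.8 and 18.0 CPM with doxorubicin in A17fl/fl mice. The A17α-MHCKO mice had 20.7, 24.7 and 23.4 CPM after saline and 14.0, 14.1 and 11.5 CPM after doxorubicin. Every doxorubicin-treated mouse was therefore below every saline-treated mouse. In A17fl/fl mice the log2 fold change was -0.86 (SE 0.18, 1.82-fold lower, unadjusted p = 5.76e-04, adjusted p = 0.299, edgeR's quasi-likelihood test). Leaving out A17fl/fl + NS replicate 1 gave -0.77 (adjusted p = 0.253). In A17α-MHCKO mice it was -0.80 (SE 0.18, 1.74-fold lower, unadjusted p = 0.00103, adjusted p = 0.646, same test). The difference between the genotypes in this effect was 0.06 on the log2 scale (95% interval -0.50 to 0.62), so that a difference of either sign within this interval remains possible, and it was -0.03 without A17fl/fl + NS replicate 1.

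Over both genotypes the log2 fold change of Ednrb was -0.83 (SE 0.13, 1.78-fold lower, adjusted p = 0.118, edgeR's quasi-likelihood test). The 6 mice of one treatment did not overlap the 6 of the other, which held for 1 of 9 genes against 1.16% of all tested genes (p = 0.00216 by a two-sided exact permutation test, the minimum for 6 against 6). The adjusted p was 1.36e-05 with DESeq2 and 2.90e-04 with edgeR's likelihood ratio test, and it was between 0.0337 and 0.408 when each library was left out in turn. It was 0.0641 without A17fl/fl + NS replicate 1, and the lowest of these, 0.0337, was without A17fl/fl + NS replicate 2. Endothelium is a main site of the ETB receptor. The 6 endothelial markers summed to 919 to 1273 CPM in A17fl/fl + NS mice, 1248 to 1379 CPM in A17fl/fl + DOX mice, 1230 to 1332 CPM with saline and 1051 to 1380 CPM with doxorubicin in A17α-MHCKO mice. The median log2 fold change of these markers after doxorubicin was 0.29 in A17fl/fl mice, -0.17 in A17α-MHCKO mice and 0.05 over both, where their sums overlapped. Over both genotypes the median was 0.34 for the 6 ventricular cardiomyocyte markers, 3 of them higher at an unadjusted p under 0.05, and -0.94 for the 6 atrial markers, 1 of them lower. For the 6 fibroblast markers it was -0.26, with 2 of them lower. The atrial median was -0.20 in A17fl/fl mice and -1.66 in A17α-MHCKO mice. The part of these tissues in the Ednrb result was not tested.

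Between the genotypes Ednrb was lower in A17α-MHCKO mice after saline without overlap (log2 fold change -0.36, SE 0.18, unadjusted p = 0.0733, adjusted p = 0.531, edgeR's quasi-likelihood test), and the value was -0.26 without A17fl/fl + NS replicate 1. After doxorubicin the log2 fold change was -0.29 (95% interval -0.70 to 0.11) and the groups overlapped. Over both treatments it was -0.32 (SE 0.13, unadjusted p = 0.0273, adjusted p = 0.736, same test). The exact permutation test gave a two-sided p = 0.303, but it shuffled the mice regardless of treatment. The difference between treatments thus added to its spread.

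The ligands were read next. Edn1 encodes the main endothelin of endothelium and measured 14.1, 3.71 and 6.58 CPM with saline and 4.84, 6.71 and 4.85 CPM with doxorubicin in A17fl/fl mice. It was between 3.70 and 6.74 CPM with saline and between 2.86 and 5.22 CPM with doxorubicin in A17α-MHCKO mice. The value of 14.1 CPM belonged to A17fl/fl + NS replicate 1, the library with the high neutrophil markers, and the other 11 libraries lay at or under 6.74 CPM. With that library the log2 fold change after doxorubicin in A17fl/fl mice was -0.58 (95% interval -1.52 to 0.37), and without it the value was 0.08. Fibroblast, macrophage and red cell markers were high in the same library, and the part of any of these cell types or of neutrophils in this value was not tested.

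Edn3 encodes endothelin-3, the ligand that acts mainly on the ETB receptor and is known for the development of neural crest cells. It measured 1.501, 2.57 and 5.83 CPM with saline and 2.08, 4.001 and 3.11 CPM with doxorubicin in A17fl/fl mice. Among A17α-MHCKO mice the values were 0.864, 0.605 and 1.05 CPM after saline and 5.79, 5.39 and 3.34 CPM after doxorubicin. The 3 A17α-MHCKO + NS mice were thus the lowest of the 12, and the other 3 groups overlapped each other.

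After doxorubicin in A17α-MHCKO mice the log2 fold change of Edn3 was 2.53 (SE 0.49, 5.78-fold, unadjusted p = 3.00e-04, adjusted p = 0.486, edgeR's quasi-likelihood test). Its adjusted p was 0.00152 with DESeq2 and 0.00547 with the likelihood ratio test of edgeR, and between 0.077 and 1 with each library left out. Between the genotypes after saline the log2 fold change was -1.98 (SE 0.49, 3.94-fold lower, unadjusted p = 0.00189, adjusted p = 0.283, edgeR's quasi-likelihood test). It was -2.33 without A17fl/fl + NS replicate 1 and -1.28 without A17fl/fl + NS replicate 3, and DESeq2 gave an adjusted p of 0.0188 in a range of 0.0188 to 0.92 over the settings other than left-out libraries. In A17fl/fl mice the log2 fold change after doxorubicin was -0.10 (95% interval -1.10 to 0.89), with groups that overlapped, and it was -0.46 without A17fl/fl + NS replicate 1, 0.59 without A17fl/fl + NS replicate 3 and 0.11 without A17fl/fl + DOX replicate 1. Between the genotypes this effect of doxorubicin differed by 2.64 (SE 0.67, unadjusted p = 0.00215, adjusted p = 0.828, same test). This difference and the results for A17α-MHCKO mice and for genotype after saline share the A17α-MHCKO + NS mice.

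Between the same A17α-MHCKO groups the 6 atrial markers had a median log2 fold change of -1.66 after doxorubicin, opposite in sign to that of Edn3. Only 1 of them was lower at an unadjusted p under 0.05 in edgeR's quasi-likelihood test, and their sums overlapped. Their sum was 3989, 6663 and 8643 CPM with saline and 1860, 1861 and 4108 CPM with doxorubicin in A17α-MHCKO mice, and 0 of the 6 markers were at 0 throughout a group. In A17fl/fl + NS mice the atrial sums were 1033, 7601 and 343 CPM, beside Edn3 values of 1.501, 2.57 and 5.83 CPM. The part of atrial tissue in the Edn3 difference was not tested. Over both genotypes Edn3 had a log2 fold change of 1.21 after doxorubicin (SE 0.33, unadjusted p = 0.0037, adjusted p = 0.301, edgeR's quasi-likelihood test) with overlapping values.

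Ednra, the ETA receptor of smooth muscle and cardiomyocytes, did not follow Ednrb. It measured 45.6, 44.7 and 57.2 CPM with saline and 68.0, 58.3 and 51.1 CPM with doxorubicin in A17fl/fl mice. Knockout (A17α-MHCKO) mice had 64.9, 45.2 and 63.1 CPM after saline and 44.9, 44.6 and 51.5 CPM after doxorubicin. The groups overlapped in every comparison, with the mean higher after doxorubicin in A17fl/fl mice and lower in A17α-MHCKO mice. The log2 fold change after doxorubicin in the knockout minus that in A17fl/fl mice was -0.56 (SE 0.24, unadjusted p = 0.0406, adjusted p = 0.828, edgeR's quasi-likelihood test). It was -0.51 (unadjusted p = 0.0672, adjusted p = 0.710, same test) without A17fl/fl + NS replicate 1. With Edn3, Ednra was 1 of the 2 of 9 genes in the fit of all libraries with an unadjusted p under 0.05 for this difference, against 5.99% of all tested genes.

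The ratio of Ednra to Ednrb was read within each library from FPKM. It was chosen after its values were seen and is described without a test. It was 2.16, 2.49 and 3.33 with saline and 5.70, 7.72 and 4.44 with doxorubicin in A17fl/fl mice. In the knockout the ratio was 4.90, 2.87 and 4.22 after saline and 5.03, 4.95 and 7.02 after doxorubicin. In both genotypes the doxorubicin-treated mice lay above the saline-treated mice, although the margin was narrow in A17α-MHCKO mice. The mean was 2.24-fold higher in A17fl/fl mice, 2.05-fold without A17fl/fl + NS replicate 1, and 1.42-fold higher in A17α-MHCKO mice. Over both genotypes the means were 3.33 after saline and 5.81 after doxorubicin. The mice of the 2 treatments overlapped there, with 2.16 to 4.90 after saline and 4.44 to 7.72 after doxorubicin.

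**Figure D4:**
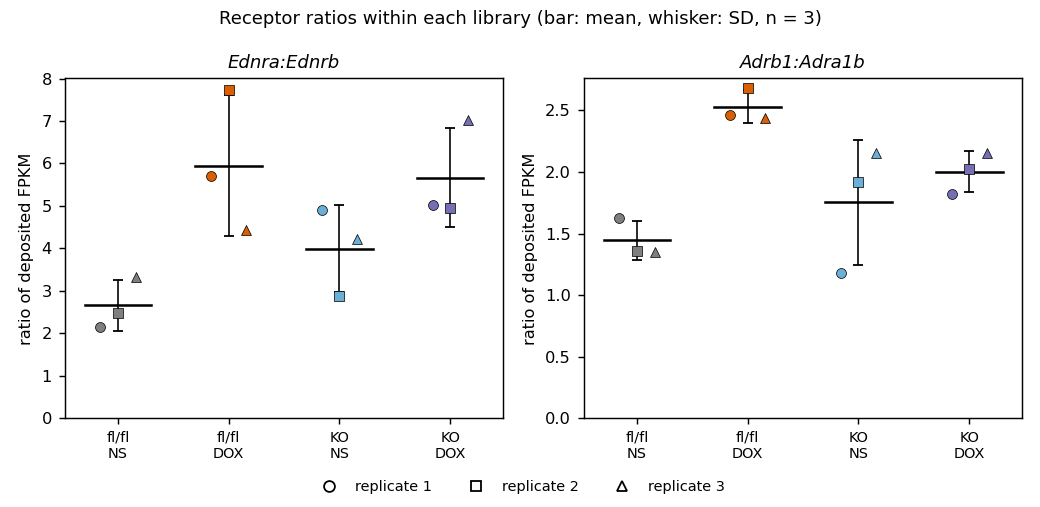
Ratio of FPKM of Ednra to Ednrb and of Adrb1 to Adra1b in each library by group, with bars for means and whiskers for SD (n = 3). The Ednra to Ednrb ratio is 4.44 to 7.72 in the 6 doxorubicin-treated mice and 2.16 to 4.90 in the 6 saline-treated mice, which overlap. The Adrb1 to Adra1b ratio is between 2.44 and 2.68 in the 3 A17fl/fl + DOX mice.

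Adrb1 was higher after doxorubicin in A17fl/fl mice. It measured 9.004, 20.7 and 19.8 CPM with saline and 28.6, 31.3 and 30.7 CPM with doxorubicin in A17fl/fl mice. A17α-MHCKO mice had 18.5, 27.3 and 21.97 CPM after saline and 27.9, 31.8 and 27.0 CPM after doxorubicin, which overlapped. The 3 A17fl/fl + DOX mice lay close together and above all 6 saline-treated mice. The log2 fold change in A17fl/fl mice was 0.87 (SE 0.26, 1.83-fold, unadjusted p = 0.00651, adjusted p = 0.358, edgeR's quasi-likelihood test). Without A17fl/fl + NS replicate 1, which had the lowest value, it was 0.57 (adjusted p = 0.297).

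In A17α-MHCKO mice the log2 fold change of Adrb1 was 0.35 (95% interval -0.22 to 0.92), and the difference between the genotypes was -0.52 (95% interval -1.33 to 0.29), or -0.22 without A17fl/fl + NS replicate 1. Over both genotypes it was 0.61 (SE 0.18, unadjusted p = 0.00654, adjusted p = 0.324, edgeR's quasi-likelihood test). It was 0.46 when A17fl/fl + NS replicate 1 was left out. The exact permutation test over both genotypes gave a two-sided p = 0.00433. With Ednrb and Edn3 this made 3 of 9 genes with an unadjusted p under 0.05, against 10.7% of all tested genes. The sum of the 6 cardiomyocyte markers was read beside Adrb1. It was 13880, 32567 and 26284 CPM in A17fl/fl + NS mice, 34856, 36334 and 37433 CPM in A17fl/fl + DOX mice, 22248 to 27985 CPM with saline and 31983 to 34026 CPM with doxorubicin in A17α-MHCKO mice, and its part in the result was not tested.

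Adra1b, the α1B-adrenergic receptor, had a value in A17fl/fl mice that rested on a single library. It measured 11.02, 30.3 and 29.2 CPM with saline and 23.1, 23.2 and 25.0 CPM with doxorubicin in A17fl/fl mice. It was between 20.3 and 31.2 CPM with saline and between 24.9 and 31.3 CPM with doxorubicin in A17α-MHCKO mice. Its log2 fold change after doxorubicin was 0.02 in A17fl/fl mice (95% interval -0.66 to 0.69) and 0.12 in A17α-MHCKO mice (95% interval -0.55 to 0.79). The groups overlapped with all libraries in the fit. As with Adrb1, the lowest value was that of A17fl/fl + NS replicate 1. Without it the log2 fold change in A17fl/fl mice was -0.33 (unadjusted p = 0.0861, adjusted p = 0.556, edgeR's quasi-likelihood test), and all 3 mice given doxorubicin were below the remaining 2 given saline.

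The ratio of Adrb1 to Adra1b, also chosen after its values were seen and not tested, was 1.63, 1.36 and 1.35 with saline and 2.46, 2.68 and 2.44 with doxorubicin in A17fl/fl mice. In the knockout the values were 1.18, 1.92 and 2.16 after saline and 1.82, 2.02 and 2.16 after doxorubicin. The A17fl/fl + DOX mice were above the mice of every other group, and A17fl/fl + NS replicate 1 did not stand apart in this ratio. The mean was 1.75-fold higher after doxorubicin in A17fl/fl mice and 1.87-fold higher without that library. Between the genotypes after doxorubicin the means were 2.53 in A17fl/fl and 2.001 in A17α-MHCKO mice, while those of the A17α-MHCKO groups overlapped.

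Of the renin-angiotensin genes, Ace was lower in A17α-MHCKO mice over both treatments. Ace, which is made chiefly by endothelium, measured 159, 119 and 144 CPM with saline and 120, 108 and 123 CPM with doxorubicin in A17fl/fl mice. Among A17α-MHCKO mice it was 100.4, 123 and 103 CPM after saline and 65.5, 117 and 99.0 CPM after doxorubicin. The groups overlapped, with A17α-MHCKO + DOX replicate 1 the lowest of the 12 and A17fl/fl + NS replicate 1 the highest. For genotype the log2 fold change was -0.34 (SE 0.14, 1.27-fold lower, unadjusted p = 0.0325, adjusted p = 0.736, edgeR's quasi-likelihood test) over both treatments. With each library left out it was between -0.44 and -0.24, and the exact permutation test gave a two-sided p = 0.0216. Ace and Ednrb were the 2 of 9 genes with an unadjusted p under 0.05 between the genotypes over both treatments, against 6.65% of all tested genes. After doxorubicin the log2 fold change of Ace was -0.26 in A17fl/fl mice (95% interval -0.70 to 0.17) and -0.22 in A17α-MHCKO mice (95% interval -0.65 to 0.22). The former was -0.17 without A17fl/fl + NS replicate 1, and the latter was -0.01 without A17α-MHCKO + DOX replicate 1 and -0.41 without A17α-MHCKO + DOX replicate 2.

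Agt varied within groups as much as between them. Its values were 5.37, 8.14 and 2.82 CPM in A17fl/fl + NS mice, 7.86, 7.45 and 4.91 CPM in A17fl/fl + DOX mice, 5.80, 4.06 and 8.66 CPM with saline and 5.60, 7.08 and 6.25 CPM with doxorubicin in A17α-MHCKO mice. The log2 fold changes in the comparisons between 2 groups were between -0.09 and 0.31, and the groups overlapped in each. The 0.31 was that of doxorubicin in A17fl/fl mice, which came to -0.002 without A17fl/fl + NS replicate 3. That library had the lowest atrial sum, 343 CPM. The highest Agt lay at the highest atrial sum in A17fl/fl + NS, A17fl/fl + DOX and A17α-MHCKO + NS mice, with sums of 7601, 4949 and 8643 CPM. In A17α-MHCKO + DOX mice it did not, as the highest sum of 4108 CPM went with 6.25 CPM of Agt. How far atrial tissue accounts for the spread of Agt was not tested.

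Agtr1a had the largest coefficient of variation within groups of the 9 genes. It measured 14.3, 6.52 and 31.6 CPM in A17fl/fl + NS mice, 9.31, 29.1 and 33.9 CPM in A17fl/fl + DOX mice, 26.9, 19.3 and 5.75 CPM with saline and 32.5, 29.0 and 9.59 CPM with doxorubicin in A17α-MHCKO mice. In each of the 4 groups the mouse with the lowest Agtr1a was the one with the highest atrial sum, with 7601, 4949, 8643 and 4108 CPM of atrial markers. The means after doxorubicin were 1.38-fold those after saline in A17fl/fl mice and 1.37-fold in A17α-MHCKO mice, with 95% intervals of -1.06 to 1.99 and -1.07 to 1.98 on the log2 scale. Its close paralog Agtr1b had 0 counts in 12 of 12 libraries. How far atrial tissue accounts for the spread of Agtr1a was not tested.

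**Figure D5:**
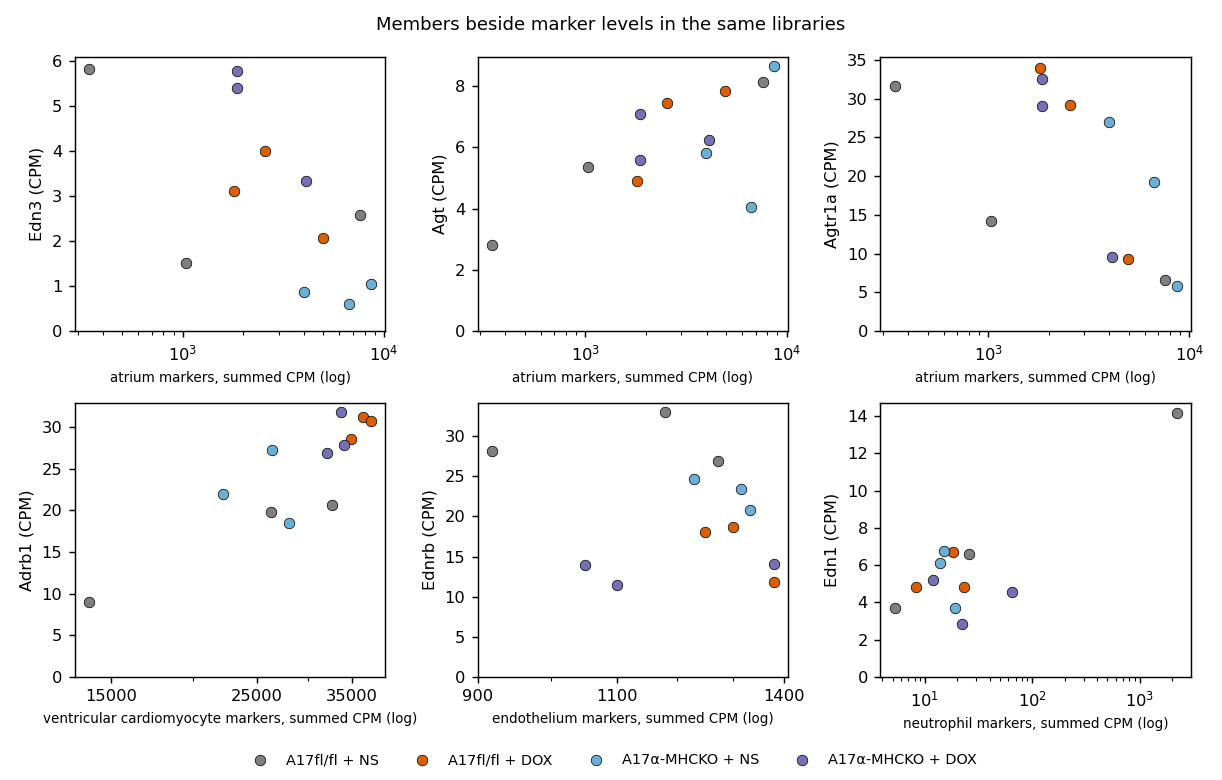
CPM of Edn3, Agt and Agtr1a beside atrial markers, Adrb1 beside ventricular cardiomyocyte markers, Ednrb beside endothelial markers and Edn1 beside neutrophil markers, in each library (log x axis, colours by group). The lowest Agtr1a of each group lies at its highest atrial sum, and 1 A17fl/fl + NS library with 2211 CPM of neutrophil markers has the highest Edn1 (14.1 CPM).

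Other genes of the same systems were counted in 5 lists, the renin-angiotensin system, the endothelin system, adrenergic receptors and catecholamine handling, Gs signaling and Gq signaling. Of 110 listed genes 93 were tested, and 0 of them had an adjusted p under 0.05 in edgeR's quasi-likelihood test in any comparison. In A17fl/fl mice 3 of them were higher and 4 lower with doxorubicin at an unadjusted p under 0.05, 7.53% against 10.7% of all tested genes, and in A17α-MHCKO mice 0 were higher and 3 lower, 3.23% against 6.42%. In the knockout relative to A17fl/fl mice 2 were higher and 6 lower after saline, 8.6% against 10.1%, and 0 were higher and 2 lower after doxorubicin, 2.15% against 2.7%. The shares of the listed genes were below those of all tested genes in these 4 comparisons.

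In the renin-angiotensin list, with 18 genes tested, Hsd11b1, which regenerates active glucocorticoid, had 13.7 to 53.7 CPM with saline and 12.7 to 14.4 CPM with doxorubicin in A17fl/fl mice (log2 fold change -1.34, SE 0.40, adjusted p = 0.358, edgeR's quasi-likelihood test). Bdkrb2, the bradykinin B2 receptor, had 0.838 to 7.33 CPM with saline and 0.497 to 1.05 CPM with doxorubicin in the same comparison, and in both genes the highest value was that of A17fl/fl + NS replicate 1, without which the log2 fold changes were -0.88 for Hsd11b1 and -0.53 for Bdkrb2. In A17α-MHCKO mice Hsd11b1 had 6.82 to 12.7 CPM with saline and 13.2 to 20.1 CPM with doxorubicin. Its log2 fold change for genotype after saline was -1.76, without overlap (SE 0.40, adjusted p = 0.244, edgeR's quasi-likelihood test). It was -1.31 without A17fl/fl + NS replicate 1. The interaction for Hsd11b1 was 2.04 (SE 0.56, adjusted p = 0.828, same test). Anpep, an aminopeptidase that cuts angiotensin III, had 20.7 to 32.8 CPM with saline and 17.8 to 18.4 CPM with doxorubicin in A17α-MHCKO mice, without overlap. In the endothelin list, with 4 genes tested, the protease gene Furin had 145 to 254 CPM in A17fl/fl + NS mice and 104 to 130 CPM in A17α-MHCKO + NS mice (log2 fold change -0.69, SE 0.24, adjusted p = 0.361, same test). The 254 CPM was that of A17fl/fl + NS replicate 1, and the log2 fold change of Furin was -0.39 without it.

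In the adrenergic list, with 15 genes tested, Adra1d, the α1D-adrenergic receptor, had 2.65 to 3.23 CPM with saline and 5.23 to 5.41 CPM with doxorubicin in A17fl/fl mice (log2 fold change 0.89, SE 0.24, adjusted p = 0.334, edgeR's quasi-likelihood test). Its level in A17α-MHCKO + NS mice was 3.66 to 5.61 CPM, also above the A17fl/fl + NS mice. Ddc, the decarboxylase that forms dopamine, had 0.439 to 4.61 CPM with saline and 7.11 to 10.1 CPM with doxorubicin in A17fl/fl mice (log2 fold change 2.23, SE 0.67, adjusted p = 0.358, same test). A17fl/fl + NS replicates 1 and 3 had only 8 and 7 counts of Ddc. The A17α-MHCKO + NS mice had 5.12 to 6.97 CPM, also above the A17fl/fl + NS mice. Of these 15 genes, 2 were higher and 0 lower with doxorubicin in A17fl/fl mice when p was not adjusted, against 10.7% of all tested genes, and 0 in A17α-MHCKO mice, against 6.42%.

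Among 25 tested genes of Gs signaling, Pde4b, a cAMP phosphodiesterase, had 28.9 to 91.6 CPM with saline and 20.4 to 28.9 CPM with doxorubicin in A17fl/fl mice, the 91.6 CPM being that of A17fl/fl + NS replicate 1, without which the log2 fold change was -0.33. Prkaca, a catalytic subunit of protein kinase A, had 158 to 289 CPM in the 6 saline-treated and 273 to 333 CPM in the 6 doxorubicin-treated mice. The 158 CPM was also that of A17fl/fl + NS replicate 1. The log2 fold change of Prkaca over both genotypes was 0.34 with that library and 0.23 without it. Among 31 tested genes of Gq signaling, Camk2d, which encodes a calmodulin kinase of the heart, had 48.4 to 63.7 CPM with saline and 71.7 to 101 CPM with doxorubicin in A17fl/fl mice (log2 fold change 0.61, SE 0.18, adjusted p = 0.358, edgeR's quasi-likelihood test). In A17α-MHCKO mice it had 55.2 to 78.9 CPM with saline and 58.9 to 70.7 CPM with doxorubicin, which overlapped. The interaction for Camk2d was -0.72 (SE 0.26, adjusted p = 0.828, same test). Prkcb, protein kinase C beta, had 4.97 to 5.34 CPM in A17fl/fl + DOX mice and 2.85 to 3.15 CPM in A17α-MHCKO + DOX mice, without overlap (log2 fold change -0.81, SE 0.22, adjusted p = 0.9998, same test).

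The genes most like each member in pattern were found by Pearson's r of log2 CPM over the 12 libraries among 14459 tested genes with a mean over 1 CPM. For Ednrb they were Samd4b (r = 0.934), Tbl2 (r = 0.917) and Mlec (r = 0.913). For Edn3 they were Pcsk4 (r = 0.938), Aqp8 (r = 0.914) and Gm826 (r = 0.895), and for Adrb1 they were Mrm1 (r = 0.962), Sybu (r = 0.959) and Smyd1 (r = 0.959). The closest gene was Tada3 for Agt, Nlgn2 for Ace, Lrrc24 for Agtr1a, Slc25a37 for Edn1, Plekhg1 for Ednra and Gcdh for Adra1b, with r between 0.887 and 0.981. The libraries share groups and 1 library that stands apart, and the choice among many genes raises the largest r. Without A17fl/fl + NS replicate 1, the 3 closest genes of Adrb1, Ace and Edn1 were replaced by others, 0 of 3 being shared.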

How the data were processed

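Per the labels and the methods of the study, myocardial RNA was made into paired-end libraries with a stranded mRNA kit, and the submitters' processing notes name CASAVA 1.8, HISAT2, SAMtools 1.3.1, edgeR and the build GRCm39. The deposited counts are fragments per gene from StringTie, without normalization. The deposited FPKM are these counts divided by gene length and library total, without a TMM factor, as the values show. The annotation release and strand setting are not given in the sources used here, so overlapping and antisense genes may share fragments. Each of the 24 columns was matched to a mouse by its group and replicate number.

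Counts were analysed with edgeR 4.0.16 in R 4.3.3. The filterByExpr function kept 16101 genes, TMM set the scaling, and glmQLFit was run once with 4 group means. Tests were made by glmQLFTest for 7 comparisons, with Benjamini-Hochberg adjustment over all genes tested. Approximate standard errors were derived from each log2 fold change and its F statistic. Single values were compared by exact permutation tests, two-sided. Those of 6 against 6 mice took no account of the other factor. The common dispersion was 0.0842. Chi-square tests of counts within groups gave 11.1 to 170 per degree of freedom, and no library was a repeat of another. The scripts were tested on simulated data.

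Statistics are given for a member and comparison with an unadjusted p under 0.05 or groups that do not overlap, and for up to 3 genes per pathway list with the smallest p. Only part of those is named here. The members, lists and tests were chosen with earlier results of these data known. Alternatives were DESeq2 1.42.0, the likelihood ratio test, RLE and upper-quartile scaling, 10 counts in every library, no filter, 2 groups fitted by themselves, a replicate block, leaving out single libraries, CPM in place of FPKM, and Spearman's rho. Promoters are from RefSeq (GRCm38.p6), whose build differs from that of the files, and were used for sequence only.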

Additional observations from a re-analysis of the deposited data

Results flagged for a closer look

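In Edn3 the effect of doxorubicin in A17α-MHCKO mice exceeded that in A17fl/fl mice by 2.64 on the log2 scale (SE 0.67, unadjusted p = 0.00215, adjusted p = 0.828, edgeR's quasi-likelihood test of the interaction). In Ednra the same difference was -0.56 (SE 0.24, unadjusted p = 0.0406, adjusted p = 0.828, same test). Each was noted because this test of the difference itself passed at the unadjusted p alone. Leaving out single libraries placed the difference between 1.95 and 3.00 for Edn3 and between -0.73 and -0.45 for Ednra.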

How the results depend on the processing

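With DESeq2 in place of edgeR's quasi-likelihood test, the genes of the 9 with an adjusted p under 0.05 numbered 1 in place of 0 for doxorubicin in A17fl/fl mice (Ednrb, adjusted p = 0.0076), 2 in A17α-MHCKO mice (Edn3, 0.00152, and Ednrb, 0.029), 1 for genotype after saline (Edn3, 0.0188) and 1 for doxorubicin over both genotypes (Ednrb, 1.36e-05). Over all tested genes DESeq2 called 151, 41, 174 and 176 genes in these comparisons, against 0, 0, 3 and 0. With edgeR's likelihood ratio test the numbers of the 9 were 1, 1, 1 and 1, and of all genes 128, 12, 160 and 81. The cause was not tested. With each library left out in turn, this number for doxorubicin over both genotypes ranged from 0 to 1, being 1 without A17fl/fl + NS replicate 2 (Ednrb, adjusted p = 0.0337), when the calls over all genes came to 73 in place of 0, with 391 in place of 0 for doxorubicin in A17fl/fl mice and 672 in place of 3 for genotype after saline. The number within the limits of the study for doxorubicin in A17fl/fl mice ranged from 0 to 1, being 1 without A17fl/fl + NS replicate 2 or replicate 3 (Adrb1). Where the limit was 1 CPM and not 1 FPKM, it was 1 rather than 0 for doxorubicin in A17α-MHCKO mice and 1 for genotype after saline (Edn3), since Edn3 lies under 1 FPKM. Fold changes of members with an unadjusted p under 0.05 or without overlap kept their direction under every alternative run, and in 10 of these alternative values the adjusted p came under 0.05. Other members changed direction with single libraries left out, as Edn1 and Adra1b after doxorubicin in A17fl/fl mice did without A17fl/fl + NS replicate 1. The numbers of genes shared with the 3 closest in pattern moved in 17 of 18 cases. A gene with as few counts as Edn3 (14 to 93 per library) is limited by depth.

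Correlations between libraries were read by replicate number, and whether same-numbered mice were paired was not tested. Same-numbered libraries of different groups had correlations of their deviations between -0.10 and 0.22, over 0.1 in 3 of 18 pairs, and 6 of 12 libraries correlated best with their own number. With a replicate block 0 of the 9 genes had an adjusted p under 0.05 in any comparison, and the log2 fold change of Ednrb after doxorubicin over both genotypes was -0.83 (adjusted p = 0.18). The block changed no call among the 9 genes. Over all tested genes the calls were 1 in place of 3 for genotype after saline and 2 in place of 4 for genotype over both treatments.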

Other observations

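Several genes of these systems were too low to be tested, and their counts are given as values. Ren1, which encodes renin, had 0 to 16 counts per library and was at 0 in 8 of 12 libraries, the 16 counts being in A17α-MHCKO + NS replicate 2 and the next highest count being 4. Agtr1b, Cyp11b2 (aldosterone synthase) and Mrgprd had 0 counts in 12 of 12 libraries. Agtr2, the AT2 receptor, had 0 to 2 counts, Edn2 had 0 to 3 and Mas1, the receptor of angiotensin 1-7, had 3 to 13. Th, the first enzyme of catecholamine synthesis, had 0 to 16 counts and Slc6a2, the noradrenaline transporter, 0 to 15. Bdkrb1, the bradykinin B1 receptor, reached 70 counts in the A17fl/fl + NS replicate 1 library, with at most 7 elsewhere.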
